A study of Mus musculus with 8 samples.

Results

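The genes described here code for enzymes that remove peroxides and superoxide, for the glutathione and thioredoxin systems that keep those enzymes reduced, and for NRF2 (gene Nfe2l2), the transcription factor that switches many of them on. The list held 39 genes chosen by name, and 35 of them had a probe set of their own among the 17097 genes measured. Prdx5, Prdx6, Keap1 and Mt2 were not analysed here. For a gene with several probe sets, the brightest one on average over the 8 arrays was used.

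Expression was measured in islets of Langerhans isolated at 20 weeks of age, on 8 arrays with 2 per group. The first group was hIAPP transgenic mice that received PBA (4-phenylbutyrate, which helps proteins fold) in their water from 8 weeks of age, over 12 weeks and at a dose of 1 g/kg/day, and the second was hIAPP transgenic mice left without drug. The third was wild-type mice given PBA at the same dose and time, and the fourth was untreated wild-type mice. The strain name given for all 4 groups, FVB/N-Tg(Ins2-IAPP)RFHSoel/J, puts the human amyloid polypeptide transgene behind an insulin gene (Ins2) sequence. Whole islets hold beta cells together with other endocrine, vascular, immune and connective tissue cells and some exocrine tissue. Fewer cells of a type and less RNA per cell therefore cannot be told apart.

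Levels are log2 values rounded to 1 decimal, so that a difference of 1 is a 2-fold change, and they are compared between arrays for the same gene only. The 23 non-specific control probe sets had a 95th percentile of 4.685, which serves here as the mark of background. Of the 35 genes, 33 lay above it on every array, and Gpx8 and Hmox1 dipped to or below it on some. The 9 measured beta-cell markers had medians of 10.9 to 11.8 on all arrays. On PBA-treated wild type 1 the median of 9 hybridisation controls was 7.1, and it was 9.8 to 10.2 elsewhere. The acinar marker median was 9.3 on PBA-treated hIAPP 1 and 11.0 to 12.8 on the others. Those 2 arrays are called the doubted arrays, and counts are also given without them.

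Hydrogen peroxide is broken down by catalase in peroxisomes, by glutathione peroxidases at the expense of glutathione, and by peroxiredoxins at the expense of thioredoxin. Rodent beta cells are known for low catalase and glutathione peroxidase levels next to liver. NRF2 is held in the cytoplasm by KEAP1 and degraded, and oxidants or electrophiles release it to bind antioxidant response elements in genes such as Nqo1, Hmox1, Gclc, Gclm, Srxn1 and Txnrd1. No other tissue was measured, so the relative shortage in islets was not tested. In untreated wild-type islets Cat was at 6.2 and 6.3, and Gpx1, the abundant cytosolic glutathione peroxidase, was at 10.9 on both arrays.

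**Figure D1:**
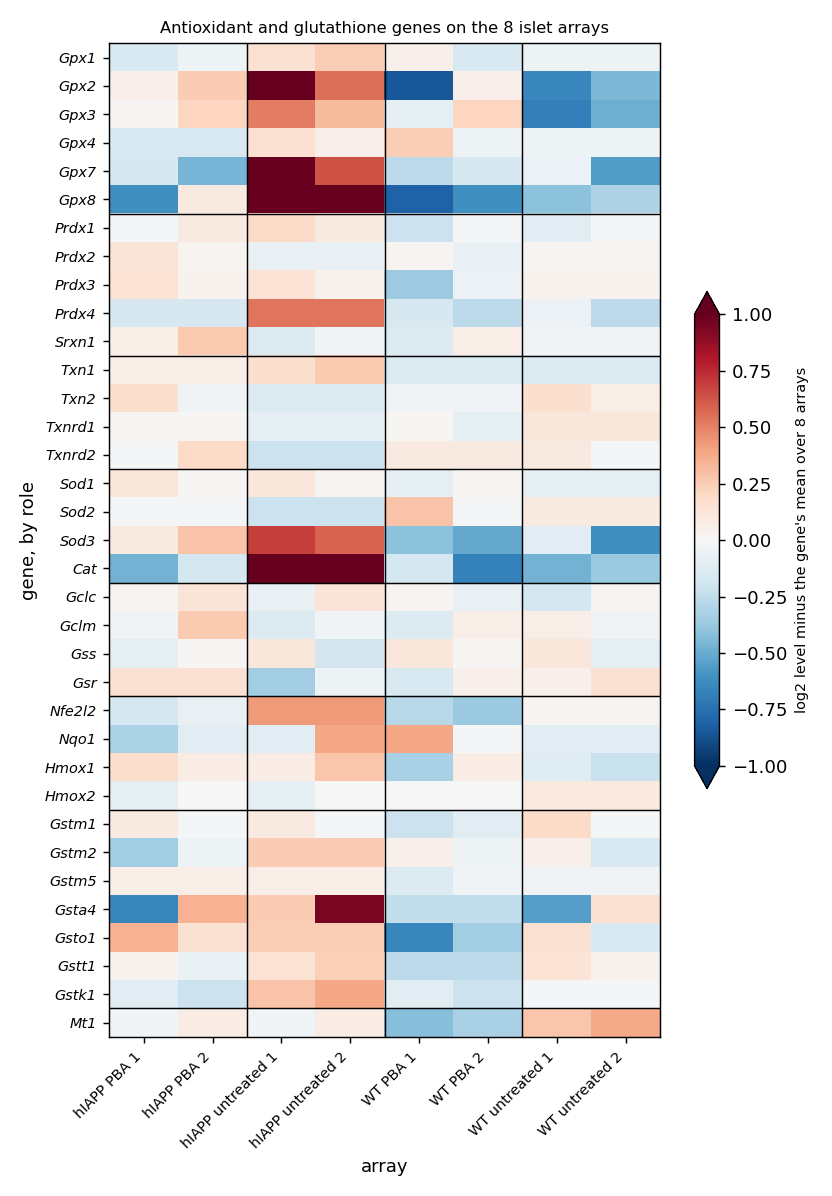
Level of each of the 35 genes (rows, grouped by role) on each of the 8 arrays (columns), as the log2 level minus that gene's own mean over the arrays, with the colour scale ending at -1 and 1. The columns of untreated hIAPP islets stand out in red for Cat, Gpx2, Gpx7, Gpx8, Sod3 and Prdx4, while most rows are pale across all columns.

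Most of these genes varied little. The range over all 8 arrays was at most 0.5 for 20 of the 35 genes, and it was at least 1 for 8 of them. The widest ranges belonged to Gpx8 (2.2), Cat and Gpx2 (1.9 each), Gpx7 and the glutathione transferase gene Gsta4 (1.6 each). The narrowest, 0.2, belonged to Sod1, Prdx2, Txnrd1, Hmox2 and Gstm5.

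The comparison of untreated hIAPP with untreated wild-type islets asks what the transgene changed without drug. In all, 8 antioxidant genes were higher in hIAPP islets and 0 were lower. They were the peroxidase genes Gpx2, Gpx3, Gpx7 and Gpx8, the peroxiredoxin gene Prdx4, the superoxide dismutase gene Sod3, catalase and Nfe2l2. The count of 8 is 22.9% of the 35 measured, beside 7.77% of all 17097 genes that rose in this comparison, 3.19% that fell and 11.0% that changed in either direction. The median log2 fold change was 0.15 over the 35 genes and -0.05 over all genes.

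Catalase, which splits hydrogen peroxide in peroxisomes, was at 7.8 and 7.9 in untreated hIAPP islets and at 6.2 and 6.3 in untreated wild-type islets. Both hIAPP arrays were above both wild-type arrays by at least 1.5. The means were 7.85 ± 0.07 in untreated hIAPP and 6.25 ± 0.07 in untreated wild-type islets (SD, n = 2 each), which differ by 1.60 on the log2 scale (SE 0.18, adjusted p = 0.0022) or 3.03-fold. A second Cat probe set had 7.2 and 7.4 in untreated hIAPP islets, against 6.1 and 6.3 in untreated wild-type islets. It rose by 1.10 (SE 0.18) in the fit of all probe sets (adjusted p = 0.0105).

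Among the 6 glutathione peroxidases, 4 rose, and the list had a median log2 fold change of 1.07. Gpx8, a membrane-bound peroxidase of the endoplasmic reticulum, was at 6.6 and 6.7 in untreated hIAPP islets, against 4.9 and 5.0 in untreated wild-type islets. The groups did not overlap, and the wild-type values lay just above background. The log2 fold change was 1.70 (SE 0.21, adjusted p = 0.0033). Gpx7, its soluble relative in the same compartment, was at 6.4 and 6.0 in untreated hIAPP islets and at 5.3 and 4.8 in untreated wild-type islets (1.15, SE 0.21, adjusted p = 0.0134). Gpx2, the peroxidase of gut epithelium, was at 6.6 and 6.1 in untreated hIAPP islets and at 4.9 and 5.1 in untreated wild-type islets (1.35, SE 0.29, adjusted p = 0.0278). Both of these genes were near background in wild type and separate between the genotypes.

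Gpx3, the secreted peroxidase found in plasma, was at 11.2 and 11.0 in untreated hIAPP islets and at 10.0 and 10.2 in untreated wild-type islets. Unlike the other three it was far above background in both genotypes. The log2 fold change was 1.00 (SE 0.15, adjusted p = 0.0061). Gpx1 was at 11.1 and 11.2 in untreated hIAPP islets, against 10.9 on both untreated wild-type arrays (0.25, SE 0.11, adjusted p = 0.2084). Gpx4, which reduces lipid peroxides in membranes, was at 10.9 and 10.8 in untreated hIAPP islets and at 10.7 on both untreated wild-type arrays (0.15, SE 0.12, adjusted p = 0.5052).

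Prdx4, the peroxiredoxin of the endoplasmic reticulum, was at 9.8 on both untreated hIAPP arrays and at 9.2 and 9.0 on the untreated wild-type arrays (0.70, SE 0.11, adjusted p = 0.0065). It had 3 further probe sets, all dimmer, and in the fit of all probe sets they were at 0.95 (adjusted p = 0.0041), 0.60 (adjusted p = 0.2205) and 0.15 (adjusted p = 0.6590). The probe set at 0.95 was above background only in untreated hIAPP islets (5.1 and 5.2), and that at 0.15 was below background on every array. Sod3, the extracellular superoxide dismutase, was at 6.0 and 5.9 in untreated hIAPP islets and at 5.2 and 4.7 in untreated wild-type islets (1.00, SE 0.17, adjusted p = 0.0107). Its other probe set was below background on every array. The cytosolic and mitochondrial superoxide dismutases did not pass, Sod1 at 0.15 and Sod2 at -0.30. Nor did the cytosolic or mitochondrial peroxiredoxin genes Prdx1, Prdx2 and Prdx3, whose changes were 0.20, -0.10 and 0.05. The thioredoxin gene Txn1 was at 11.1 and 11.2 in untreated hIAPP islets and at 10.8 on both untreated wild-type arrays, close to the threshold (0.35, SE 0.09, adjusted p = 0.0549). The mitochondrial thioredoxin and thioredoxin reductase genes Txn2 and Txnrd2 were at -0.25 each (adjusted p = 0.1986 for both).

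**Figure D2:**
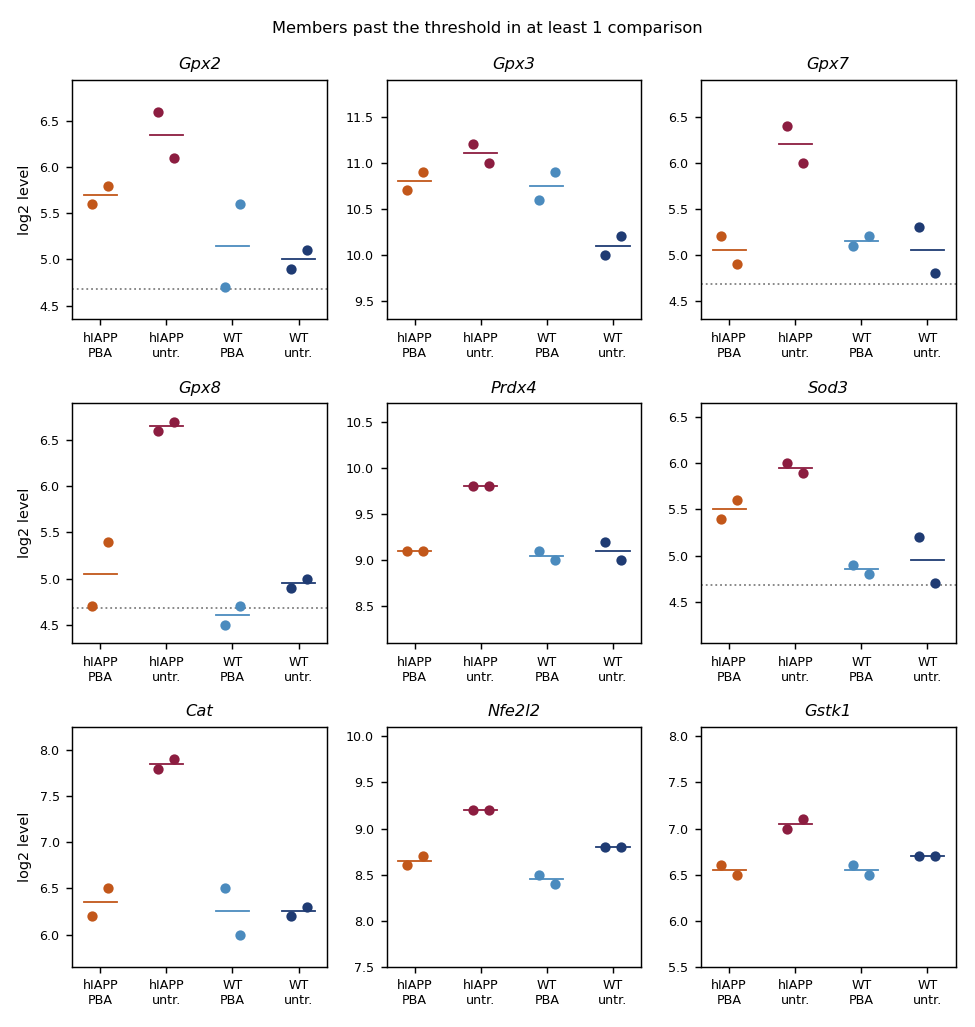
Log2 level on each array (points) and group mean (bars) for the 9 genes past the threshold in at least 1 comparison, with the groups in the order PBA-treated hIAPP, untreated hIAPP, PBA-treated wild type and untreated wild type on the x axis. The dotted line marks the background level of 4.685, and each vertical axis has its own range. Cat, Gpx8 and Prdx4 are highest on both untreated hIAPP arrays.

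Nfe2l2 was at 9.2 on both untreated hIAPP arrays and at 8.8 on both untreated wild-type arrays. The arrays of a group gave equal values, and the log2 fold change was 0.40 (SE 0.10, adjusted p = 0.0403). The call ended, among other settings, with arrays centred on the median (0.35, adjusted p = 0.0870), with all probe sets fitted (adjusted p = 0.0743), with the acinar level as a covariate (0.39, adjusted p = 0.0651) and with the mean of its 2 probe sets (0.18, adjusted p = 0.3702). The second Nfe2l2 probe set was below background on every array, between 3.9 and 4.6, so that mean takes in a probe set at the floor.

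The NRF2 targets Nqo1, Hmox1, Gclc, Gclm, Srxn1 and Txnrd1 did not pass in the same comparison. Gpx2, another NRF2 target, and Cat, which has also been reported as one, rose as given above. Nqo1, a quinone reductase widely used as a read-out of NRF2, was at 5.6 and 6.1 in untreated hIAPP islets and at 5.6 on both untreated wild-type arrays. Its log2 fold change was 0.25 with a 95% interval of -0.21 to 0.71. Hmox1, the inducible heme oxygenase, was at 5.0 and 5.2 in untreated hIAPP islets and at 4.8 and 4.7 in untreated wild-type islets, close to background (0.35, interval -0.01 to 0.71). Both intervals, which are for the measured signal, end below a 2-fold rise. Signal close to background can understate a change, so a 2-fold rise in transcript is not excluded. The subunit genes of glutamate-cysteine ligase, the first step of glutathione synthesis, differed by no more than 0.10. Gclc was at 8.0 and 8.2 in untreated hIAPP islets and at 7.9 and 8.1 in untreated wild-type islets (0.10, interval -0.19 to 0.39). Gclm was at 9.4 and 9.5 in untreated hIAPP islets and at 9.6 and 9.5 in untreated wild-type islets (-0.10, interval -0.42 to 0.22). For the sulfiredoxin gene Srxn1, which repairs overoxidised peroxiredoxins, the values were 8.2 and 8.3 in untreated hIAPP islets and 8.3 on both untreated wild-type arrays (-0.05, interval -0.33 to 0.23). The thioredoxin reductase gene Txnrd1 was at 9.9 on both untreated hIAPP arrays and at 10.1 on both untreated wild-type arrays (-0.20, interval -0.42 to 0.02). The glutathione synthetase gene Gss changed by -0.05 and the glutathione reductase gene Gsr by -0.30 (adjusted p = 0.8551 and 0.2109).

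**Figure D3:**
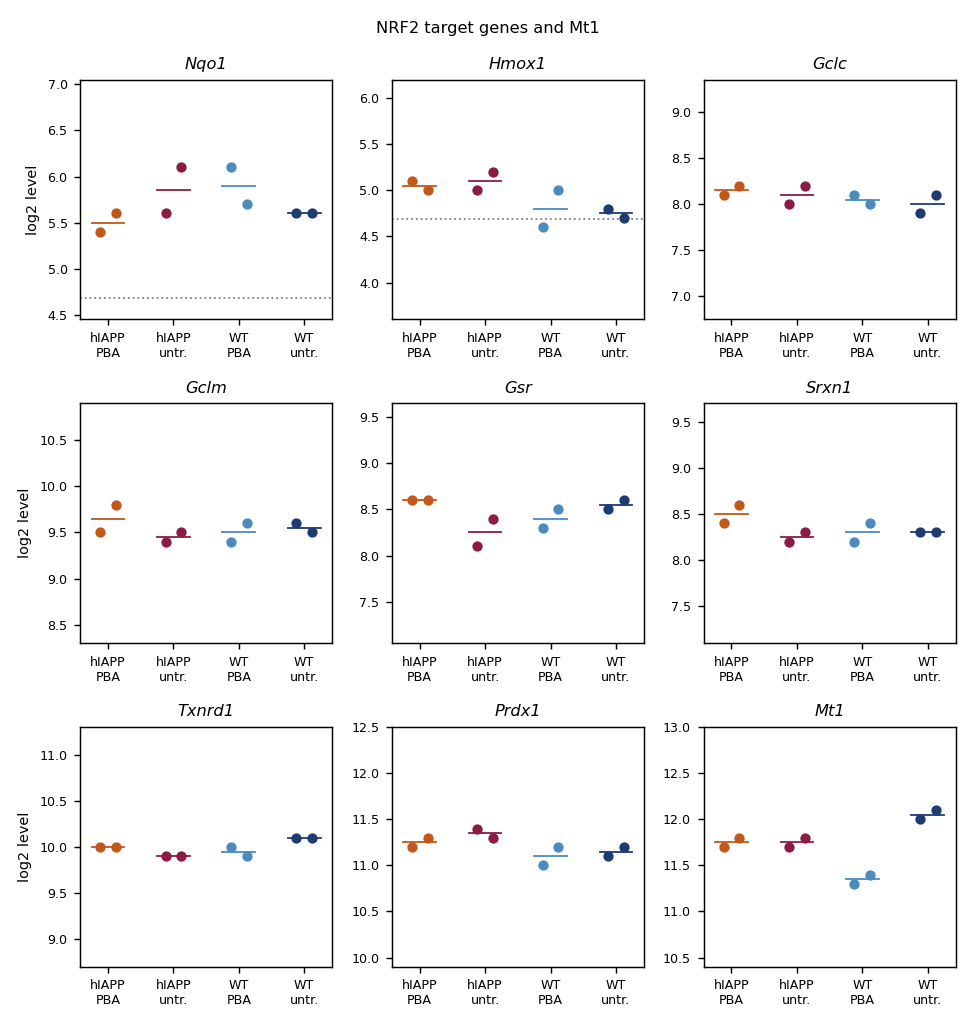
Log2 level on each array (points) and group mean (bars) for 8 NRF2 target genes and Mt1, with the groups ordered as PBA-treated hIAPP, untreated hIAPP, PBA-treated wild type and untreated wild type. The dotted line is the non-specific control mark of 4.685. Gclc, Gclm, Srxn1 and Txnrd1 lie within 0.4 of a log2 unit over all 8 arrays, and Mt1 is highest in untreated wild type.

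NRF2 and its partner proteins bind an element whose core reads TGACNNNGC. The core was searched on both strands in the 250 bases before each transcript start (RefSeq, GRCm38.p6). It was present for 3112 of 27025 genes (11.5%) and for 7 of the 33 list genes with a promoter entry (21.2%), namely Nfe2l2, Prdx1, Gclm, Txnrd1, Sod1, Gstm5 and Mt2. Of the 7 genes that rose in untreated hIAPP islets and had an entry, 1 carried it within these windows, namely Nfe2l2. That is 14.3%, near the 11.5% of all genes, so the count does not set these genes apart. A match is a string of letters, and its absence says nothing about sites elsewhere. The first 4 stretches show the matches, in capitals, for NRF2 itself and for target genes that did not pass. They lie at chr2:75704869-75704913 (minus strand), chr4:116685440-116685500 (plus strand), chr3:122245397-122245457 (plus strand) and chr10:82859088-82859148 (plus strand), and read 5′ to 3′ on the strand of the gene, so a match on the other strand appears as its reverse complement. The other 4 are the 120 bases before the start of Cat, Gpx8, Gpx7 and Prdx4, whose differences passed both with the transgene and with PBA. They lie at chr2:103485154-103485273 (minus strand), chr13:113046389-113046508 (minus strand), chr4:108406714-108406833 (minus strand) and chrX:155338461-155338580 (minus strand), hold no match and are 65.8%, 60.8%, 72.5% and 70.8% G or C.
Nfe2l2: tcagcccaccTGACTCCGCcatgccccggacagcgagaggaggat
Prdx1: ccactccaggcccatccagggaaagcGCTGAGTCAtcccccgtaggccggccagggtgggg
Gclm: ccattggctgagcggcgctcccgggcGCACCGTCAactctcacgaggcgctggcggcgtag
Txnrd1: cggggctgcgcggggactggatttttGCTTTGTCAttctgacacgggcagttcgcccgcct
Cat: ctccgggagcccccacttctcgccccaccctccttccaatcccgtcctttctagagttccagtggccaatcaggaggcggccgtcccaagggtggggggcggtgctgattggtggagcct
Gpx8: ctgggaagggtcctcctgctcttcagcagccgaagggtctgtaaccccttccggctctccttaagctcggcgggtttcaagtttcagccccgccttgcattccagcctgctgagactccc
Gpx7: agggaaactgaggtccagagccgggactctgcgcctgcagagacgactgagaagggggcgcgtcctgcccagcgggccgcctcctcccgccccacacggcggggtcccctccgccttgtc
Prdx4: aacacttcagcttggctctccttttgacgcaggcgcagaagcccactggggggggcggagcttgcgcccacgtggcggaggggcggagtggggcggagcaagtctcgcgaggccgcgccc

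The glutathione transferases, which join glutathione to electrophiles, gave 0 of 7 past the threshold, with a median log2 fold change of 0.25. Gstk1, the peroxisomal and mitochondrial kappa transferase, was at 7.0 and 7.1 in untreated hIAPP islets and at 6.7 on both untreated wild-type arrays (0.35, SE 0.10, adjusted p = 0.0695). Gsta4, which clears lipid peroxidation products, spread more widely, with 5.7 and 6.4 in untreated hIAPP islets and 4.9 and 5.6 in untreated wild-type islets (0.80, SE 0.38, adjusted p = 0.2478). Its lower hIAPP array was only 0.1 above its higher wild-type array. Gstm1, Gstm2, Gstm5, Gsto1 and Gstt1 changed by -0.05 to 0.30.

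The metallothionein gene Mt1, whose product binds zinc and copper and scavenges radicals, was at 11.7 and 11.8 in untreated hIAPP islets and at 12.0 and 12.1 in untreated wild-type islets (-0.30, SE 0.10, adjusted p = 0.1197). That probe set may also hybridise to closely related transcripts, as its name ending marks. The second Mt1 probe set, 7.3 and 7.0 in untreated hIAPP islets against 8.0 and 8.2 in untreated wild-type islets, changed by -0.95 (SE 0.14) in the fit of all probe sets and passed (adjusted p = 0.0068). The 2 probe sets therefore differ in their call and point the same way.

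Markers of other cell types moved with the same arrays, beside 7.77% of all genes that rose and 3.19% that fell. Of 15 macrophage markers 14 rose, and the log2 of their summed level was 13.65 and 13.36 in untreated hIAPP islets and 11.93 and 11.90 in untreated wild-type islets. Of 13 connective tissue markers 11 rose, with a summed level of 13.77 and 13.64 in untreated hIAPP islets and 12.01 and 11.63 in untreated wild-type islets. Of 9 endothelial markers 7 rose, with a summed level of 12.26 and 12.18 in untreated hIAPP islets and 11.62 and 11.52 in untreated wild-type islets. Col1a2 and Pdgfra, among the connective tissue markers, stayed below background on every array. Of 9 beta-cell markers 1, Ucn3, fell, and the median log2 fold change over the 9 was -0.35. Of 5 duct markers 1 rose, and 0 of 11 acinar and 0 of 3 red blood cell markers passed. The duct markers Cftr and Sox9 and the red blood cell marker Slc4a1 were below background on every array. The part of these cells in the antioxidant differences was not tested.

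**Figure D4:**
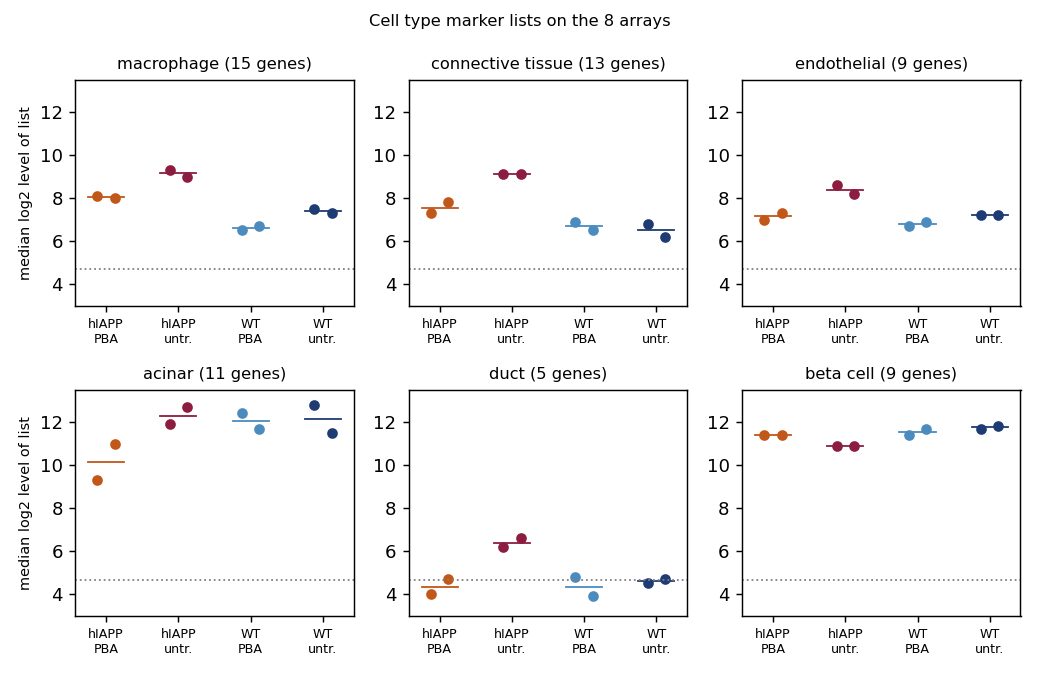
Median log2 level of each marker list on each array (points) with the group mean (bars), for PBA-treated hIAPP, untreated hIAPP, PBA-treated wild-type and untreated wild-type islets. The macrophage and connective tissue medians are highest on the untreated hIAPP arrays (9.0 to 9.3), and the acinar median is lowest on PBA-treated hIAPP 1 (9.3).

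Catalase passed in all 8 fits that left out 1 array, with a log2 fold change of 1.55 to 1.65. Gpx3 was lost without untreated wild type 1 or untreated hIAPP 1, and Prdx4 without untreated wild type 2 or untreated hIAPP 1. Sod3 was lost without untreated wild type 2 or either untreated hIAPP array, and Gpx8 without any of the 4 untreated arrays. Gpx7 passed only without untreated wild type 1 or either PBA-treated hIAPP array, and Gpx2 and Nfe2l2 only without either PBA-treated wild-type array. The count of 8 became 1 without untreated hIAPP 1, 3 without untreated hIAPP 2, 4 without untreated wild type 1, 2 without untreated wild type 2, and 3 (Cat, Gpx8 and Nfe2l2) without both doubted arrays.

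PBA-treated hIAPP islets were next set against untreated hIAPP islets, to see the effect of PBA in transgenic mice. This comparison uses the same 2 untreated hIAPP arrays as the comparison above, so a gene that is high on those arrays tends to appear in both. Of the 35 genes 6 were lower with PBA and 0 were higher, namely Cat, Gpx7, Gpx8, Prdx4, Nfe2l2 and Gstk1. That is 17.1%, beside 6.32% of all genes that fell, 1.78% that rose and 8.09% that changed in either direction. The median log2 fold change was -0.05 over the 35 genes and 0.00 over all genes.

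Catalase was at 6.2 and 6.5 in PBA-treated hIAPP islets, against 7.8 and 7.9 in untreated hIAPP islets. The PBA-treated values lay near those of untreated wild type. The means were 6.35 ± 0.21 in PBA-treated and 7.85 ± 0.07 in untreated hIAPP islets (SD, n = 2 each), a difference of -1.50 on the log2 scale (SE 0.18, adjusted p = 0.0044). The second Cat probe set was at 6.2 on both PBA-treated hIAPP arrays and at 7.2 and 7.4 in untreated hIAPP islets (-1.10, adjusted p = 0.0149 over all probe sets).

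Gpx8 was at 4.7 and 5.4 in PBA-treated hIAPP islets and at 6.6 and 6.7 in untreated hIAPP islets (-1.60, SE 0.21, adjusted p = 0.0061). Its lower PBA-treated value was at background, so the fold is measured against a level near the floor. Gpx7 was at 5.2 and 4.9 in PBA-treated hIAPP islets and at 6.4 and 6.0 in untreated hIAPP islets (-1.15, SE 0.21, adjusted p = 0.0173). Prdx4 was at 9.1 on both PBA-treated hIAPP arrays and at 9.8 on both untreated ones (-0.70, SE 0.11, adjusted p = 0.0096). The pairs of arrays gave equal values in both groups. In the fit of all probe sets the 3 further Prdx4 probe sets, in the order given above, were at -0.80 (adjusted p = 0.0121), -0.95 (adjusted p = 0.0761) and -0.25 (adjusted p = 0.4334). Nfe2l2 was at 8.6 and 8.7 in PBA-treated hIAPP islets and at 9.2 on both untreated hIAPP arrays (-0.55, SE 0.10, adjusted p = 0.0154). With the mean of its 2 probe sets, the dimmer of which was below background, the change was -0.40 and did not pass (adjusted p = 0.0660). Gstk1 was at 6.6 and 6.5 in PBA-treated hIAPP islets and at 7.0 and 7.1 in untreated hIAPP islets (-0.50, SE 0.10, adjusted p = 0.0255). The other transferases did not pass, with Gstm2 the nearest (-0.45, SE 0.13, adjusted p = 0.0897).

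The other peroxidase and dismutase genes did not pass. Gpx2 was at 5.6 and 5.8 in PBA-treated hIAPP islets and at 6.6 and 6.1 in untreated hIAPP islets (-0.65, SE 0.29, adjusted p = 0.2414). Gpx3 was at 10.7 and 10.9 in PBA-treated hIAPP islets and at 11.2 and 11.0 in untreated hIAPP islets (-0.30, SE 0.15, adjusted p = 0.2836). Sod3 was at 5.4 and 5.6 in PBA-treated hIAPP islets and at 6.0 and 5.9 in untreated hIAPP islets (-0.45, SE 0.17, adjusted p = 0.1699). In all 3 genes the groups were separate on the arrays. Such separation was not counted over all genes, so it adds nothing to the test. Gpx1 was at 10.8 and 10.9 in PBA-treated hIAPP islets and at 11.1 and 11.2 in untreated hIAPP islets (-0.30, SE 0.11, adjusted p = 0.1550). Sod2, the mitochondrial enzyme, was at 9.7 on both PBA-treated hIAPP arrays and at 9.5 on both untreated ones (0.20, adjusted p = 0.3729).

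Those 6 NRF2 targets did not pass with PBA either, nor did Gpx2, while Cat fell as given above. Nqo1 was at 5.4 and 5.6 in PBA-treated hIAPP islets and at 5.6 and 6.1 in untreated hIAPP islets (-0.35, interval -0.81 to 0.11). Hmox1 was at 5.1 and 5.0 in PBA-treated hIAPP islets and at 5.0 and 5.2 in untreated hIAPP islets (-0.05, interval -0.41 to 0.31). These groups met or overlapped. Gclc (0.05), Gclm (0.20), Srxn1 (0.25) and Txnrd1 (0.10) had log2 fold changes whose intervals reached no further than -0.24 and 0.53. In PBA-treated hIAPP islets Gclc was at 8.1 and 8.2 and Gclm at 9.5 and 9.8. Srxn1 was there at 8.4 and 8.6, and Txnrd1 was at 10.0 on both arrays. Gsr, which returns oxidised glutathione to its reduced form, was at 8.6 on both PBA-treated hIAPP arrays and at 8.1 and 8.4 on the untreated ones (0.35, adjusted p = 0.1679). The Mt1 values were 11.7 and 11.8 in both hIAPP groups, a change of 0.00 with an interval of -0.24 to 0.24.

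**Figure D5:**
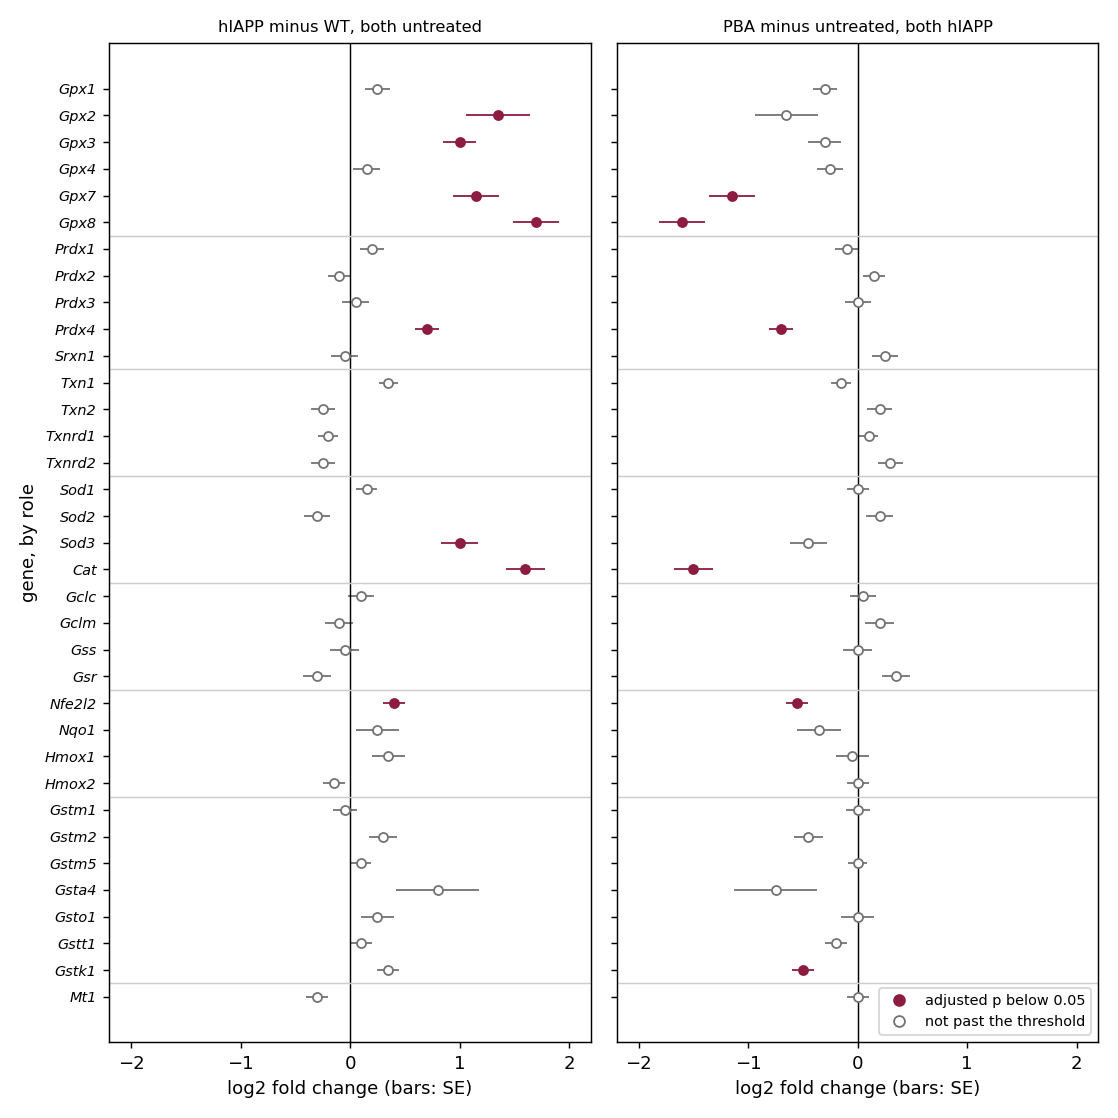
Log2 fold change (x axis) of each of the 35 genes (y axis, grouped by role), with bars for the standard error, for untreated hIAPP minus untreated wild type (left) and PBA-treated minus untreated hIAPP (right). Filled points passed an adjusted p of 0.05, 8 on the left, all to the right of 0, and 6 on the right, all to the left of 0. Both panels use the untreated hIAPP arrays.

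Markers of other cell types moved with PBA as well, beside 6.32% of all genes that fell and 1.78% that rose. Macrophage markers fell in 13 of 15, with a log2 summed level of 12.69 and 12.57 in PBA-treated hIAPP islets and 13.65 and 13.36 in untreated hIAPP islets. Connective tissue markers fell in 10 of 13, with a summed level of 12.25 and 12.54 in PBA-treated hIAPP islets and 13.77 and 13.64 in untreated ones. Endothelial markers fell in 7 of 9, with a summed level of 11.53 on both PBA-treated hIAPP arrays and 12.26 and 12.18 on the untreated ones. Acinar markers fell in 2 of 11, and their summed level was 13.06 and 14.50 in PBA-treated hIAPP islets and 15.34 and 16.15 in untreated hIAPP islets. The duct marker Muc1 (-2.05) fell, 1 of 5 measured, as did the red blood cell marker Hba-a1 (-0.75), 1 of 3. Beta-cell markers went the other way, with 2 of 9 higher, Pcsk1 and Isl1 (0.60 each), and a median log2 fold change of 0.45 over the 9. Their summed level was 15.24 and 15.28 in PBA-treated hIAPP islets and 15.01 and 15.09 in untreated hIAPP islets.

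When the acinar level entered the fit as a covariate, 0 of the 6 genes passed. Catalase was then at -1.20 (SE 0.27, adjusted p = 0.1479), Gpx8 at -1.22 (SE 0.32, 0.1920) and Gpx7 at -1.24 (SE 0.36, 0.2288). Prdx4 was at -0.58 (SE 0.18, 0.2600), Gstk1 at -0.51 (SE 0.18, 0.3136) and Nfe2l2 at -0.46 (SE 0.16, 0.3282). These SEs were larger than those of the full fit given above. The acinar median was lowest on the 2 PBA-treated hIAPP arrays (9.3 and 11.0), so the covariate moves with this comparison and cannot be separated from it. The part of acinar or other cell types was therefore not tested. The count of 6 was 0 without either untreated hIAPP array or without both doubted arrays. It was 1 when PBA-treated hIAPP 1 was left out, and 2 for PBA-treated hIAPP 2. Leaving out either of these PBA-treated arrays, or either untreated hIAPP array, ended the calls of Prdx4, Nfe2l2, Gpx7 and Gstk1. The Cat call ended without either untreated hIAPP array or PBA-treated hIAPP 1, and that of Gpx8 without either untreated hIAPP array. Gpx7 was also lost without either PBA-treated wild-type array, and Gstk1 without either untreated wild-type array. Over these 8 fits catalase lay between -1.65 and -1.35 and Gpx8 between -1.95 and -1.25.

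PBA given to wild-type mice shows what the drug did without the transgene. In this comparison 0 of the 35 genes passed by limma, beside 0.292% of all genes. At an unadjusted p below 0.05 there were 5 of the 35, and all genes were not counted at that mark. The largest difference was in Mt1, at 11.3 and 11.4 in PBA-treated wild-type islets and at 12.0 and 12.1 in untreated wild-type islets. Both PBA-treated arrays were the lowest of the 8. The log2 fold change was -0.70 (SE 0.10, adjusted p = 0.0608), and the second Mt1 probe set had 7.1 and 7.2 in PBA-treated wild-type islets against 8.0 and 8.2 in untreated ones (-0.95, adjusted p = 0.0808 over all probe sets). With the mean of both probe sets the change was -0.82 and passed (adjusted p = 0.0217), as did the value with dim genes left out (-0.70, adjusted p = 0.0317). Over all alternatives its adjusted p lay between 9.4e-06 and 0.3620.

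Gpx3 was at 10.6 and 10.9 in PBA-treated wild-type islets and at 10.0 and 10.2 in untreated wild-type islets (0.65, SE 0.15, adjusted p = 0.2087). Nfe2l2 was at 8.5 and 8.4 in PBA-treated wild-type islets and at 8.8 on both untreated ones (-0.35, SE 0.10, adjusted p = 0.2690). The transferase gene Gsto1 was at 7.2 and 7.5 in PBA-treated wild-type islets and at 8.0 and 7.7 in untreated ones (-0.50, SE 0.15, adjusted p = 0.3102). The groups of these 3 genes did not overlap, which was likewise not counted over all genes and adds nothing to the test. Catalase was at 6.5 and 6.0 in PBA-treated wild-type islets and at 6.2 and 6.3 in untreated ones, a change of 0.00. Its PBA-treated pair spread on either side of the untreated pair. Further values in PBA-treated wild-type islets were 4.5 and 4.7 for Gpx8, 5.1 and 5.2 for Gpx7 and 4.7 and 5.6 for Gpx2. Prdx4 was there at 9.1 and 9.0, Gstk1 at 6.6 and 6.5 and Gpx1 at 11.0 and 10.8. Nqo1 was at 6.1 and 5.7 and Hmox1 at 4.6 and 5.0, with the first Gpx8 and Hmox1 values below background. Gclc was at 8.1 and 8.0, Gclm at 9.4 and 9.6, Srxn1 at 8.2 and 8.4 and Txnrd1 at 10.0 and 9.9.

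Under PBA the genotypes were also compared, and 0 of the 35 genes passed between PBA-treated hIAPP and PBA-treated wild-type islets. Beside this, 0.415% of all genes passed, with 0.316% of all genes higher in hIAPP islets. At an unadjusted p below 0.05 there were 5 of the 35, a mark not counted over all genes. The widest gaps were in Gsto1, at 8.2 and 8.0 in PBA-treated hIAPP islets and 7.2 and 7.5 in PBA-treated wild-type islets (0.75, SE 0.15, adjusted p = 0.1315), and in Sod3, at 5.4 and 5.6 in PBA-treated hIAPP islets and 4.9 and 4.8 in PBA-treated wild-type islets (0.65, SE 0.17, adjusted p = 0.2173). Of 15 macrophage markers 10 were higher in the same comparison and 0 were lower. Set against untreated wild type, PBA-treated hIAPP islets gave 4 of 35 at an unadjusted p below 0.05, again not counted over all genes. Past the threshold there were 0 of 35, beside 0.368% of all genes. Gpx3 was the nearest, at 10.7 and 10.9 in PBA-treated hIAPP islets and 10.0 and 10.2 in untreated wild-type islets (0.70, SE 0.15, adjusted p = 0.1449). Cat differed there by 0.10 (SE 0.18).

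Whether the drug acted differently in the 2 genotypes was tested by the interaction, the PBA effect in hIAPP islets minus that in wild-type islets. Catalase alone of the 35 genes passed, at -1.50 (SE 0.26, adjusted p = 0.0395), beside 1.69% of all genes with a negative interaction past the threshold and 1.96% with one in either direction. It came from -1.50 in hIAPP islets and 0.00 in wild-type islets. The interaction of Cat was lost whichever of the 8 arrays was left out (-1.75 to -1.25, with adjusted p-values reaching 0.1921), with the acinar covariate (-1.21, adjusted p = 0.2597) and with all probe sets fitted (adjusted p = 0.0522). Mt1 had 0.70 (SE 0.15, adjusted p = 0.0649), and its second probe set had 1.20 and passed over all probe sets (adjusted p = 0.0468). Gpx3 (-0.95), Gpx7 (-1.25), Gpx8 (-1.25) and Prdx4 (-0.65) did not pass, with adjusted p of 0.0777, 0.0859, 0.0965 and 0.0849. In the same test 5 of 13 connective tissue, 3 of 9 endothelial and 1 of 15 macrophage markers were negative past the threshold, and their part in the Cat result was not tested.

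Further genes of the same chemistry were taken from lists by role. Of 80 genes listed, 69 were measured. In untreated hIAPP against untreated wild-type islets 17 rose (24.6%, beside 7.77% of all genes) and 4 fell (5.8%, beside 3.19%). In PBA-treated against untreated hIAPP islets 0 rose (beside 1.78% of all genes) and 12 fell (17.4%, beside 6.32%). The share that fell with the transgene was near that of all genes. Of 6 measured genes that produce oxidants, 4 were higher with the transgene and 4 were lower with PBA in hIAPP islets. Cyba, a membrane subunit of the phagocyte NADPH oxidase, was at 7.3 and 7.0 in PBA-treated hIAPP, 9.3 and 9.0 in untreated hIAPP, 6.0 and 6.3 in PBA-treated wild-type and 6.9 and 6.7 in untreated wild-type islets. It changed by 2.35 with the transgene (SE 0.17, adjusted p = 5.0e-04) and by -2.0 with PBA in hIAPP islets (SE 0.17, adjusted p = 0.0019). Ncf4, a cytosolic subunit of that enzyme, changed by 1.55 and -1.85, and Nox4, a related oxidase gene of non-phagocytic cells, by 2.10 and -1.40 (adjusted p at most 0.0079). Nox4 was below background on every array but the 2 of untreated hIAPP islets, so its folds are measured against the floor. Ncf4 was at 4.8 and 4.6 in PBA-treated hIAPP islets, so its fold with PBA is also measured near the floor. Cybb, the catalytic subunit, was the oxidase gene that also passed between PBA-treated hIAPP and PBA-treated wild-type islets, at 7.4 and 7.5 in the hIAPP and 5.8 and 6.1 in the wild-type islets (1.50, SE 0.15, adjusted p = 0.0173). Macrophage markers moved in the same comparisons, as given above.

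The next counts stand beside 7.77% of all genes that rose and 3.19% that fell with the transgene. With PBA in hIAPP islets 1.78% of all genes rose and 6.32% fell. Among 21 other measured genes listed with the NRF2 pathway, 6 rose with the transgene and 4 fell with PBA in hIAPP islets. That list mixes target genes with regulators such as Bach1 and with the thioredoxin inhibitor gene Txnip, so its count does not measure NRF2 activity. The genes that rose were Txnip (1.80), Maff (0.95), Ephx1 (0.85), Blvrb (0.80), Bach1 (0.75) and Cbr3 (0.65). Maff codes for a small Maf protein, a partner of NRF2 on DNA, and Bach1 for a repressor that competes with NRF2 there. Ephx1, Blvrb and Cbr3 code for an epoxide hydrolase, a biliverdin reductase and a carbonyl reductase, and Txnip for a protein that binds and inhibits thioredoxin. Those that fell with PBA in hIAPP islets were Txnip (-1.45), Blvrb (-0.85), Ephx1 (-0.75) and Bach1 (-0.65). Txnip was measured at 10.4 and 10.5 in PBA-treated hIAPP, 12.0 and 11.8 in untreated hIAPP, 10.1 and 10.3 in PBA-treated wild-type and 10.0 and 10.2 in untreated wild-type islets. Among the 15 others, which did not pass with the transgene, were the ferritin genes Fth1 and Ftl1 at 0.20 and -0.15, the malic enzyme gene Me1 at 0.05 and the pentose phosphate genes Pgd and Taldo1 at 0.20 and -0.10. Slc7a11, the cystine transporter gene, was below background on all 8 arrays. Of 24 other glutathione genes, 4 rose and 2 fell with the transgene, and 0 rose and 3 fell with PBA in hIAPP islets. The falls with the transgene were in the glutaredoxin gene Glrx5 (-0.50, adjusted p = 0.0200) and in Chac1, which codes for a glutathione-degrading enzyme (-0.40, adjusted p = 0.0403). Of the 24 genes, the microsomal transferase gene Mgst1 had the largest rise with the transgene and the largest fall with PBA in hIAPP islets. It was at 7.1 and 8.0 in PBA-treated hIAPP, 9.6 and 9.4 in untreated hIAPP, 7.2 and 6.6 in PBA-treated wild-type and 8.1 and 7.5 in untreated wild-type islets. It changed by 1.70 with the transgene (SE 0.34, adjusted p = 0.0202) and by -1.95 with PBA in hIAPP islets (SE 0.34, adjusted p = 0.0154). Of 18 thiol repair and selenoprotein genes, 3 rose and 2 fell with the transgene, the falls being in Sesn3 (-0.65) and the isocitrate dehydrogenase gene Idh2 (-0.40). With PBA in hIAPP islets 0 rose and 1 fell, near the shares of all genes. The gene that fell was the methionine sulfoxide reductase gene Msrb3, which had also risen with the transgene (1.40, adjusted p = 0.0100). Msrb3 was at 4.8 and 5.5 in PBA-treated hIAPP islets and at 6.6 on both untreated hIAPP arrays (-1.45, SE 0.24, adjusted p = 0.0119).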

How the data were processed

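The deposited table holds log2 values per probe set and array, made by the authors with RMA in the affy package, per the submitters' processing notes, which give no version. RMA corrects for background, quantile-normalises the arrays and combines the probes of each set into a single value. The array's annotation gave 28898 of 45037 non-control probe sets exactly 1 gene symbol, 551 several and 15588 none. Symbols were updated through gene IDs, which matched RefSeq (GRCm38.p6) for 16937 of 17097 genes.

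The 17097 genes were fitted with limma 3.58.1 in R 4.3.3 as 4 group means over all 8 arrays, with 4 residual and 3.27 prior degrees of freedom (prior SD 0.132, log2). All tests were two-sided, with Benjamini-Hochberg adjustment over all genes and a threshold of 0.05. SE is the fit's standard error of a log2 fold change, and intervals cover 95%. Tables and plots used pandas 2.3.3 and matplotlib 3.10.9 in Python 3.11.15. Correlation across genes was 0.9933 to 0.9942 within groups and 0.9723 to 0.9935 between groups, so the ranges overlap. The number of arrays limits the precision. Nothing in the labels ties the arrays to separate animals or to pools. The p-values then measure only the spread among these samples, which may be technical.

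Values on every array are given for each list gene past the threshold in any comparison and for Cat, Gpx1, Nfe2l2, Nqo1, Hmox1, Gclc, Gclm, Txnrd1, Srxn1 and Mt1. Of the other redox genes past the threshold, up to 5 in each direction were named by size. Genes named outside that rule were chosen after their values were seen, namely Gpx4, Txn1, Gsr, Gss, Gsta4, Gsto1, Sod1, Sod2, Txn2, Txnrd2, Prdx1, Prdx2, Prdx3, Gstm1, Gstm2, Gstm5, Gstt1, Hmox2, Cybb, Maff, Ephx1, Blvrb, Bach1, Cbr3, Fth1, Ftl1, Me1, Pgd, Taldo1, Slc7a11, Col1a2, Pdgfra, Cftr, Sox9 and Slc4a1. The members and all lists were chosen with earlier results of these data known. Alternatives changed the filter on dim genes, the scaling between arrays, the probe set rule, the features fitted, the variance prior, the arrays fitted, a replicate block and an acinar covariate, and left out arrays.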

Additional observations from a re-analysis of the deposited data

Results flagged for a closer look

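The effect of PBA on catalase passed the test of a difference between the genotypes in the fit of all 8 arrays, and the call did not hold in most of the other fits. The PBA effect in hIAPP islets minus that in wild-type islets was -1.50 on the log2 scale (SE 0.26, adjusted p = 0.0395 by limma over 17097 genes). Both PBA-treated hIAPP arrays (6.2 and 6.5) were below both untreated hIAPP arrays (7.8 and 7.9). In wild-type islets the PBA-treated arrays (6.5 and 6.0) lay on either side of the untreated ones (6.2 and 6.3). The second Cat probe set had an interaction of -1.05 that did not pass over all probe sets (adjusted p = 0.1236). The call of the brighter Cat probe set was lost whichever 1 of the 8 arrays was left out (adjusted p = 0.0792 to 0.1921), with all probe sets fitted (adjusted p = 0.0522), when both doubted arrays were removed (-1.10, adjusted p = 0.2318) and with the acinar covariate (-1.21, adjusted p = 0.2597).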

How the results depend on the processing

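Every one of the 15 calls on single genes kept its direction in every alternative that was run. All 15 passed with dim genes left out, with a second quantile normalisation and with a trended, robust variance prior, 14 with arrays centred on the median, 13 with all probe sets fitted or averaged, and 12 with the replicate block, where Gpx2 and Nfe2l2 with the transgene (adjusted p = 0.0567 and 0.0655) and the Cat interaction (0.0934) were lost. Only 7 of 15 passed with the acinar covariate, 3 of 14 with only the arrays of the 2 groups and 3 of 15 without both doubted arrays, and in the fits that left out 1 array 59 of 120 calls passed. The number of the 35 genes past the threshold moved more. With only the arrays of the 2 groups it was 3 for the transgene (8 in the full fit) and 0 for PBA in hIAPP islets (6). Without both doubted arrays it was 3, 0 and, for the interaction, 0 (1 in the full fit). With the acinar covariate it was 0 for PBA in hIAPP islets and 0 for the interaction. With the trended prior it was 6 for the interaction and 2 for each of the 3 comparisons at 0. For the interaction it was 3 with dim genes left out, 2 with arrays centred, 2 with probe sets averaged, 0 with all probe sets fitted and 0 with the replicate block. For PBA in wild-type islets it was 1 with dim genes left out and 1 with probe sets averaged. Without 1 array the counts ran from 1 to 9 for the transgene and from 0 to 5 for PBA in hIAPP islets, and were 0 in the other 4 comparisons; the cause was not tested.

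The counts over all genes moved too, from 1874 to 483 for the transgene and from 1384 to 14 for PBA in hIAPP islets with only the arrays of the 2 groups, and that PBA count to 73 with the acinar covariate and to 0 without both doubted arrays. The trended prior raised it to 2292 and the interaction count to 1060, against 335 in the full fit, 118 with the replicate block and 3 with the acinar covariate. For PBA in wild-type islets 50 genes became 300 with the trended prior and 5 with the block. Array numbers are shared between groups, and the deviations of arrays with the same number correlated at -0.14 to 0.0977 across genes. The labels do not say whether arrays with the same number belong together, and these values do not exclude it. Genes near background, such as Gpx8, Gpx7, Gpx2 and Hmox1, have changes limited by signal over background.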
